A study of Homo sapiens with 24 samples.

Results

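RAB proteins are the largest branch of the small GTPases and steer membrane traffic, and their mRNAs were followed here through a bromouridine chase in human cells. The members were the RAB genes named by RAB, a number and at most 1 letter, that averaged 1 TPM or more over 24 libraries. TPM is an abundance per transcript length, scaled to a fixed total in each library. Of 61 such RAB symbols, 47 passed this filter and 14 did not, and the 47 were part of the 13416 genes kept out of 25341 symbols. The members just inside the filter were RAB3B at a mean of 1.22 TPM, RAB15 at 1.26 TPM and RAB6B at 1.44 TPM, and just outside it stood RAB25 at 0.959 TPM and RAB38 at 0.845 TPM. RAB9B was listed at 0 in all libraries. The values of each member differed from those of every other gene.

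The libraries came from U2OS, a human osteosarcoma line, in a custom double stable line with a Tet-off switch that carries Tob2-S254D, a phosphomimetic mutant of the antiproliferative protein Tob2. Induced cells grew without doxycycline and uninduced cells with it, so the effect of the drug and that of the mutant cannot be told apart. All cells carried the switch and were labelled with bromouridine, and labelled RNA was recovered with an antibody from cytoplasmic RNA at 0, 0.5, 1, 2, 4 and 6 h of chase. Each arm and time had 2 libraries, 24 in all. The labels do not say that the 2 came from separate cultures, so p-values measure the spread between these libraries, which may be technical. For slopes along the chase, that spread also holds departures of the group means from a straight line. TOB2 was higher in induced cells, at 499 to 725 TPM, against 92.3 to 267 TPM in uninduced cells. The tissue label speaks of epithelial cells of bone. Of 8 epithelial markers 3 averaged at least 1 TPM, among them KRT8 at 828 TPM and KRT18 at 1584 TPM, while the defining EPCAM was at 0 and CDH1 averaged 0.179 TPM. Of 10 mesenchymal markers 7 did, with VIM at 580.4 TPM, while FN1, THY1 and SPARC did not. Of 8 osteoblast markers 2 did, with RUNX2 at 4.13 TPM and IBSP at 0. Of 7 leukocyte markers 2 did, LYZ at 29.7 TPM and CD14 at 1.19 TPM, while PTPRC averaged 0.149 TPM. Between 12704 and 13757 genes reached 1 TPM in induced and between 12594 and 13682 in uninduced libraries, and depth is unknown because TPM sums to a fixed total. In such bulk samples fewer cells expressing a gene and less RNA per cell cannot be told apart.

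A RAB protein switches between a GTP-bound form, which sits on a membrane and recruits effectors, and a GDP-bound form, which is taken off the membrane by GDP dissociation inhibitors. Exchange factors load GTP and GTPase-activating proteins end the signal. Each RAB marks its own compartment: RAB1 the step between endoplasmic reticulum and Golgi, RAB5 the early endosome, RAB11 the recycling endosome, RAB7 the late endosome and RAB3 and RAB27 secretory vesicles. In a pulse-chase an mRNA that is lost faster than the rest becomes a smaller share of the labelled pool. Here a positive slope, in log2(TPM + 1) per hour, means that the mRNA became a larger share of the labelled RNA of the cytoplasm. A loss common to all RNAs does not show in TPM. Arrival of labelled RNA in the cytoplasm during the chase and its loss cannot be told apart.

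Sequence was available for the promoters of 39 of the 47 members, as 59 windows in RefSeq's GRCh38.p14 annotation, while the deposited values were made on hg19. A chase follows RNA already made, so the windows describe where these mRNAs start and bear on no slope. The 250 bases upstream of the start are shown for 2 members whose mRNAs fell along the chase, RAB9A and RAB42, and for 3 that rose, RAB18, RAB11A and RAB11B, 5′ to 3′, with capitals for the GC box, GGGCGG or its reverse complement CCGCCC.
RAB9A (chrX:13688878-13689127, plus strand): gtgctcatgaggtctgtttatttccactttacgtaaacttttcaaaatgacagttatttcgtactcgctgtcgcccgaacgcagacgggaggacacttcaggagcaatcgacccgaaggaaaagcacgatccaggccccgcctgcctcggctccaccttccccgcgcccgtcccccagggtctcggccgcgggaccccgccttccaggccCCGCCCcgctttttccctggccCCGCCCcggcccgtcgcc
RAB42 (chr1:28592015-28592264, plus strand): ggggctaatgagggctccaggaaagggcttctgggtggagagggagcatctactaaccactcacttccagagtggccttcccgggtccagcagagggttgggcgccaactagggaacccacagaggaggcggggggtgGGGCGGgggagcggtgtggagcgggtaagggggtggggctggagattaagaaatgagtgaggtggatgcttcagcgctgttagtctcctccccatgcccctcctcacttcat
RAB18 (chr10:27504054-27504303, plus strand): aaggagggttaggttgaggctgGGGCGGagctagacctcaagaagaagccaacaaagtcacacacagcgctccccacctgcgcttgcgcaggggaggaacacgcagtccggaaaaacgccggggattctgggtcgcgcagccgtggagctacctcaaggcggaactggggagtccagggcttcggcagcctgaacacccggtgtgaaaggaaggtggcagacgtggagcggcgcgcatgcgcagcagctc
RAB11A (chr15:65869241-65869490, plus strand): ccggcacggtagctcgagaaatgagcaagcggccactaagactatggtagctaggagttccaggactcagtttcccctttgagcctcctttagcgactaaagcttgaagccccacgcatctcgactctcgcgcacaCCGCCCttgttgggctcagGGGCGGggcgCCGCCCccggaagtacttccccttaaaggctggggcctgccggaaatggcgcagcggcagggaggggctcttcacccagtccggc
RAB11B (chr19:8390110-8390359, plus strand): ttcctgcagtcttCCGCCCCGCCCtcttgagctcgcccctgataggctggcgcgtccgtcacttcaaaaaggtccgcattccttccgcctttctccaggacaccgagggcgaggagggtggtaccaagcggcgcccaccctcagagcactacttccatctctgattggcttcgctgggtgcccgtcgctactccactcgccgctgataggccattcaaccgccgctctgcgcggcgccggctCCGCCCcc
All 5 windows held at least 1 GC box. Over all members a GC box, on either strand, was in 78.0% of the 59 windows, against 42.6% of all 35116 windows, and the median GC content was 64.8% against 58.0%. A TATA box (TATAAA, both strands) was in 3.39% of member windows against 10.7% of all windows, a CCAAT box (CCAAT, both strands) in 27.1% against 32.0%, and the AP-1 site TGACTCA (both strands) in 8.48% against 4.20%. These motifs were counted without regard to overlap, windows of 1 gene share sequence, and 27 of the 39 members had a single window. The TATA matches were in 2 windows of 1 member. All windows were taken without regard to expression, while members had to average 1 TPM or more. The comparison is thus not matched for expression.

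As a family, the RAB mRNAs became a larger share of the labelled RNA along the chase in both arms. In induced cells their TPM added up to 0.173% ± 0.014 of the library at 0 h and to 0.265% ± 0.0024 at 6 h. In uninduced cells it added up to 0.177% ± 0.00012 at 0 h and to 0.270% ± 0.013 at 6 h (SD, n = 2 each). Along the chase 28 members rose and 12 fell in induced cells, or 59.6% and 25.5% of the 47, where 41.6% and 29% of all genes did. In uninduced cells 30 members rose and 8 fell, or 63.8% and 17%, where 42.8% and 22.3% of all genes did (limma on log2(TPM + 1), Benjamini-Hochberg adjusted p under 0.05 over 13416 genes). The median slope of the members was 0.088 in induced and 0.10 in uninduced cells, against 0.028 and 0.039 over all genes. There were 30 members in induced and 31 in uninduced cells that exceeded the median of all genes. With the filter raised to 5 TPM, 28 members rose and 10 fell in induced cells, beside 5238 and 2617 of 10385 genes. In uninduced cells 30 members rose and 7 fell, beside 5507 and 1977 genes. The median slopes of the members were then 0.10 and 0.12 in induced and uninduced cells, against 0.060 and 0.064 over all genes. By the highest group mean, 18 members peaked at 6 h in induced and 24 in uninduced cells, and 3 peaked at 0 h in each arm.

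The order of the members was nearly the same in both arms. As deposited, all 47 had the same sign of slope in both, 28 rose past the threshold in both, 7 fell in both, and 4 passed it in neither. Across the 47 members the slopes of the arms correlated with Pearson's r of 0.968 and Spearman's rho of 0.960, a description over genes that share libraries. Between the uninduced slope and the log2 mean TPM, r was 0.284 and rho was 0.462. The log2(TPM + 1) scale of the slopes understates fold changes of low genes. Directions are relative to the scaling: median-of-ratios scaling moved the median slope of all genes by -0.032 in induced and -0.044 log2 per hour in uninduced cells, or by -0.19 and -0.26 over 6 h. Of the members called in uninduced cells 78.9% rose with TPM as deposited, 65% with median-of-ratios scaling, 66.7% with protein-coding transcripts alone and 68.4% without the noncoding RNAs RMRP, MIR6723 and RPPH1. These 3 RNAs fell along the chase, at 21.2% and 27.5% of the TPM at 0 h and 7.55% and 7.14% at 6 h in induced libraries, against 22.1% and 22.6% at 0 h and 7.78% and 8.45% at 6 h in uninduced libraries, which raises the share of every other RNA. Of the TPM outside these 3 RNAs the RAB members held 0.229% ± 0.0048 at 0 h and 0.286% ± 0.0017 at 6 h in induced cells, against 0.227% ± 0.00087 and 0.294% ± 0.013 in uninduced cells (SD, n = 2 each). Of the members called in induced cells 70% rose as deposited and 59.5% with protein-coding transcripts alone. Over all genes called, the shares that rose in induced cells were 58.9% and 47.0%. In uninduced cells they were 65.8% as deposited, 48.4% with median-of-ratios scaling, 55.5% with protein-coding transcripts alone and 51.8% without the 3 RNAs. Under all 4 of median-of-ratios scaling, quantile normalization, protein-coding transcripts alone and removal of the 3 RNAs, 20 of the 28 rises and 10 of the 12 falls in induced cells were still called, against 23 of the 30 rises and 7 of the 8 falls in uninduced cells. The like count over all genes was not made.

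**Figure D1:**
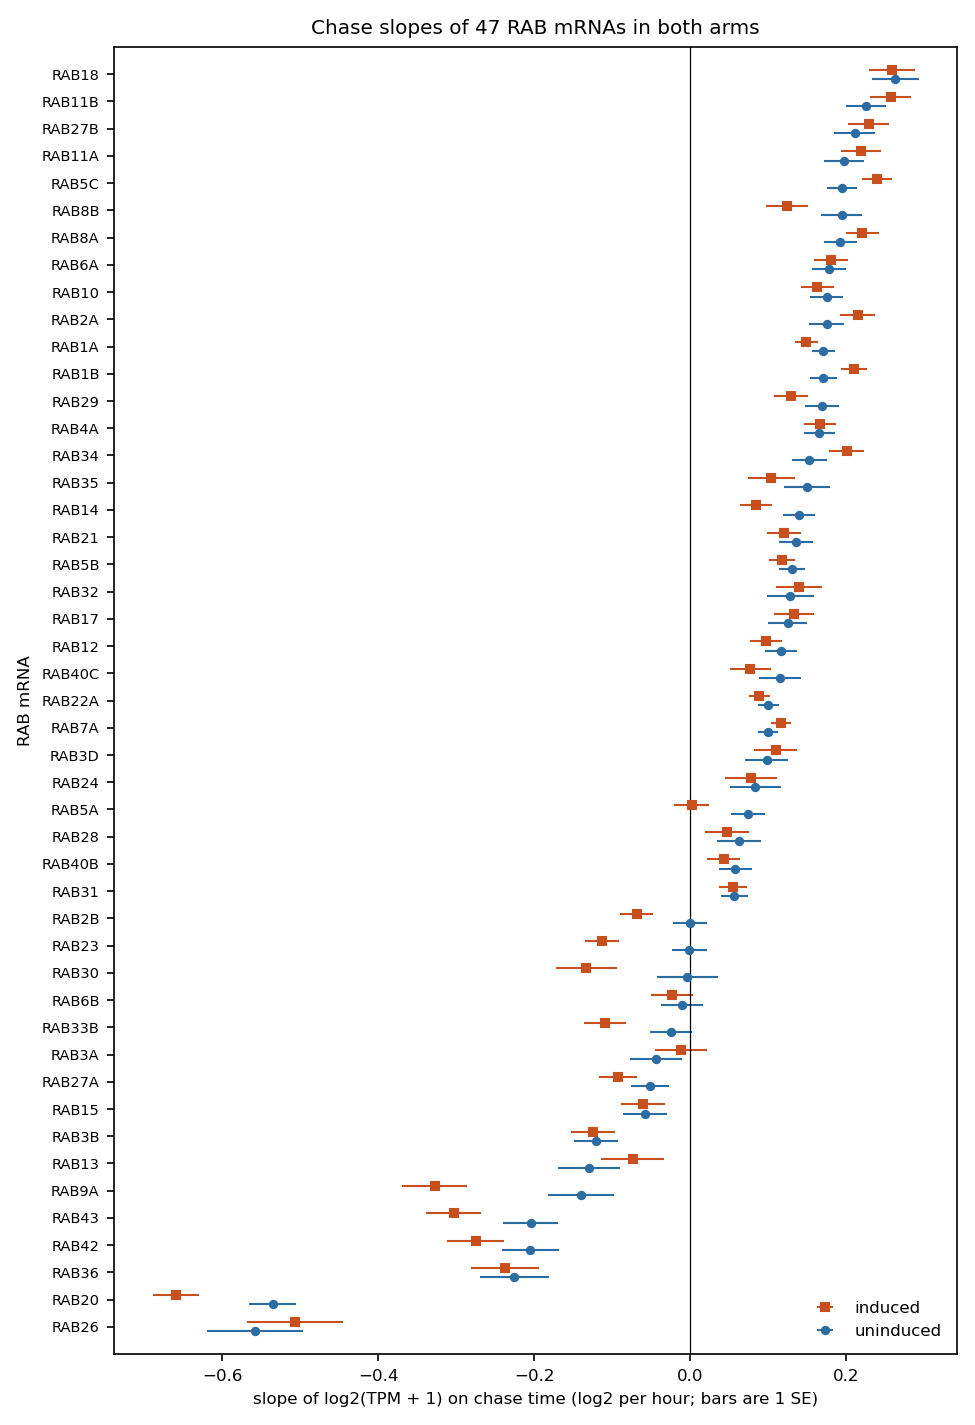
Slopes of log2(TPM + 1) on hours of chase for the 47 RAB mRNAs, sorted by the uninduced slope, with squares for induced and circles for uninduced cells and bars of 1 SE. Most slopes lie right of 0 in both arms, while RAB20 and RAB26 lie far to the left, at -0.66 and -0.54 and at -0.51 and -0.56 log2 per hour in induced and uninduced cells.

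Among the 10 members of the endoplasmic reticulum and Golgi, 5 rose in each arm, while 4 fell in induced and 1 in uninduced cells. RAB18, which acts at the endoplasmic reticulum and lipid droplets, had the highest slope of all members in both arms. RAB18 in induced cells had 13.4 and 11.7 TPM at 0 h, 14.3 and 12.6 at 0.5 h, 14.4 and 14.7 at 1 h, 25.6 and 22.6 at 2 h, 33.3 and 36.1 at 4 h and 34.8 and 33.0 at 6 h. RAB18 in uninduced cells had 10.9 and 11.4 TPM at 0 h, 12.7 and 12.8 at 0.5 h, 13.4 and 14.5 at 1 h, 19.0 and 19.7 at 2 h, 35.5 and 29.8 at 4 h and 34.6 and 29.2 at 6 h. Its level stood between 29.2 and 36.1 TPM at 4 and 6 h in all 8 libraries, above every library of the first hour. The slope of RAB18 was 0.26 (SE 0.03, adjusted p = 5.33e-08) in induced and 0.26 (SE 0.03, adjusted p = 6.35e-08) in uninduced cells. RAB1A, the most abundant member of this group and a factor of transport from the endoplasmic reticulum to the Golgi, rose less steeply. RAB1A in induced cells had 98.7 and 98.0 TPM at 0 h, 109 and 96.9 at 0.5 h, 116 and 112 at 1 h, 123 and 127 at 2 h, 169 and 168 at 4 h and 172 and 178 at 6 h. RAB1A in uninduced cells had 87.0 and 100.4 TPM at 0 h, 105 and 101 at 0.5 h, 113 and 113 at 1 h, 126 and 127 at 2 h, 176 and 157 at 4 h and 201 and 181 at 6 h. Its slope was 0.15 (SE 0.015, adjusted p = 4.21e-09) in induced and 0.17 (SE 0.015, adjusted p = 8.32e-10) in uninduced cells. RAB1B (0.21 and 0.17), its close relative, RAB2A (0.21 and 0.17), which acts between the Golgi and the endoplasmic reticulum, and RAB6A (0.18 and 0.18), a factor of retrograde Golgi transport, also rose, the values in brackets being their slopes in induced and uninduced cells. RAB43, a Golgi member, went the other way. RAB43 had 15.1 and 12.9 TPM at 0 h and 4.10 and 2.81 TPM at 6 h in induced cells, against 18.6 and 13.9 TPM and 4.62 and 5.09 TPM in uninduced cells. Its slope was -0.30 (SE 0.035, adjusted p = 4.99e-08) in induced and -0.20 (SE 0.035, adjusted p = 1.99e-05) in uninduced cells. RAB33B, a Golgi member that binds the autophagy factor ATG16L1, RAB30 and RAB2B fell in induced cells, with slopes of -0.11 (SE 0.027, adjusted p = 9.35e-04), -0.13 (SE 0.039, adjusted p = 0.00395) and -0.069 (SE 0.021, adjusted p = 0.00609). Their uninduced slopes were -0.025, -0.0043 and -0.00066 and did not pass the threshold. These calls depend on the scaling: RAB33B fell in uninduced cells too under each of the 4 alternatives (-0.063 to -0.089), as did RAB2B with median-of-ratios scaling (-0.046, adjusted p = 0.0429), and the induced fall of RAB30 did not pass with quantile normalization.

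Of the 8 early endosome members, 6 rose in induced and 7 in uninduced cells, and RAB20 fell in both. RAB5C, the most abundant of all members, is 1 of the RAB5 proteins that drive fusion of early endosomes. RAB5C in induced cells had 148 and 136 TPM at 0 h, 162 and 136 at 0.5 h, 202 and 158 at 1 h, 236 and 202 at 2 h, 329 and 289.6 at 4 h and 362 and 376 at 6 h. RAB5C in uninduced cells had 145 and 152 TPM at 0 h, 155 and 163 at 0.5 h, 181 and 158 at 1 h, 240.0 and 216 at 2 h, 257 and 276 at 4 h and 345 and 318 at 6 h. The group means rose throughout in both arms, and the libraries ended the chase at 318 to 376 TPM, with a slope of 0.24 (SE 0.019, adjusted p = 1.39e-10) in induced and 0.19 (SE 0.019, adjusted p = 6.59e-09) in uninduced cells. The slope of RAB5B, a relative, was 0.12 and 0.13 in induced and uninduced cells. RAB5A had slopes of 0.0014 and 0.073 in induced and uninduced cells, of which the uninduced one passed the threshold. The uninduced slope of RAB5A passed under none of the 4 alternatives and turned to -0.0048 with quantile normalization, where the induced one was -0.061 (adjusted p = 0.000828). RAB21, which carries integrins, and RAB22A rose in both arms, with slopes of 0.12 and 0.14 and of 0.088 and 0.10 in induced and uninduced cells. RAB31 had small positive slopes of 0.055 and 0.056 in induced and uninduced cells. They passed the threshold as deposited but under none of the 4 alternatives, and the induced one turned to -0.0026 with protein-coding transcripts alone. RAB17, known from polarised epithelia, had slopes of 0.13 and 0.12 in induced and uninduced cells. However, 86.5% of its TPM came from the noncoding transcript NR_033308, and with protein-coding transcripts alone the slopes turned to -0.028 and -0.15 and did not pass. RAB20, which acts in phagosome maturation, was among the highest RAB mRNAs at 0 h and among the lower ones at 6 h. RAB20 in induced cells had 114 and 133 TPM at 0 h, 108 and 90.3 at 0.5 h, 89.8 and 105 at 1 h, 54.8 and 69.6 at 2 h, 13.8 and 18.4 at 4 h and 7.96 and 9.01 at 6 h. RAB20 in uninduced cells had 135 and 159 TPM at 0 h, 127 and 150.5 at 0.5 h, 96.5 and 130.1 at 1 h, 76.0 and 93.3 at 2 h, 32.7 and 38.7 at 4 h and 16.5 and 15.4 at 6 h. Both arms had lost most of their RAB20 by 4 h, and the induced libraries had less than the uninduced ones at the same time at all times but 1 h, where the ranges overlapped. Between 0 h and 6 h the fall was 14.6-fold in induced and 9.21-fold in uninduced cells by group means. The slope of RAB20 was -0.66 (SE 0.03, adjusted p = 5.27e-15) in induced and -0.54 (SE 0.03, adjusted p = 3.77e-13) in uninduced cells.

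Of the 6 recycling endosome members, 5 rose in both arms. RAB11A, RAB11B, RAB4A, RAB14 and RAB35 rose, and RAB15, at a mean of 1.26 TPM, had slopes of -0.061 and -0.058 in induced and uninduced cells that did not pass the threshold as deposited but fell in both arms under all alternatives but quantile normalization. RAB11A and RAB11B, which bring receptors back to the surface from the perinuclear recycling endosome, were among the steepest risers of the family. RAB11A in induced cells had 47.0 and 43.3 TPM at 0 h, 56.3 and 48.9 at 0.5 h, 69.7 and 67.0 at 1 h, 80.8 and 87.3 at 2 h, 108 and 92.3 at 4 h and 123 and 117 at 6 h. RAB11A in uninduced cells had 44.7 and 45.3 TPM at 0 h, 56.4 and 52.9 at 0.5 h, 70.4 and 68.8 at 1 h, 77.6 and 80.4 at 2 h, 108 and 96.1 at 4 h and 114 and 105 at 6 h. The arms overlapped at all times but 2 and 6 h, and the 6 h mean was 2.66 times the 0 h mean in induced and 2.43 times in uninduced cells. The slope was 0.22 (SE 0.026, adjusted p = 5.66e-08) in induced and 0.20 (SE 0.026, adjusted p = 3.91e-07) in uninduced cells. RAB11B in induced cells had 14.1 and 11.1 TPM at 0 h, 17.5 and 12.2 at 0.5 h, 19.2 and 12.2 at 1 h, 22.5 and 19.8 at 2 h, 27.1 and 31.4 at 4 h and 35.5 and 40.8 at 6 h. RAB11B in uninduced cells had 14.2 and 11.4 TPM at 0 h, 13.5 and 15.4 at 0.5 h, 16.1 and 16.3 at 1 h, 25.0 and 21.8 at 2 h, 25.2 and 26.8 at 4 h and 35.6 and 34.8 at 6 h. In TPM the level of RAB11B was lower than that of RAB11A in every library, and its slope was 0.26 (SE 0.026, adjusted p = 5.23e-09) in induced and 0.22 (SE 0.026, adjusted p = 6.66e-08) in uninduced cells. RAB4A, of the fast recycling route, and RAB14 had slopes of 0.17 and 0.17 and of 0.084 and 0.14 in induced and uninduced cells. The induced slope of RAB14 passed with median-of-ratios scaling (0.048) but not under the other 3 alternatives (0.016 to 0.036).

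Of the 6 late endosome and lysosome members, 5 rose in both arms and RAB9A fell in both. RAB7A, the main RAB of late endosomes and lysosomes, was the most abundant of them. RAB7A in induced cells had 104 and 93.9 TPM at 0 h, 110.2 and 107 at 0.5 h, 110.5 and 105 at 1 h, 113 and 115 at 2 h, 139 and 126 at 4 h and 161 and 175 at 6 h. RAB7A in uninduced cells had 101 and 114 TPM at 0 h, 99.9 and 103 at 0.5 h, 109 and 111 at 1 h, 117 and 115 at 2 h, 128 and 130.2 at 4 h and 158 and 162 at 6 h. Its rise was shallow and the arms overlapped at all times but 0.5 h, with a slope of 0.12 (SE 0.013, adjusted p = 2.52e-08) in induced and 0.10 (SE 0.013, adjusted p = 3.96e-07) in uninduced cells. With quantile normalization the uninduced slope was 0.020 and did not pass the threshold. RAB29, a partner of the kinase LRRK2, RAB32, of lysosome-related organelles, RAB12 and RAB24, an autophagy factor, had slopes of 0.078 to 0.14 in induced and 0.083 to 0.17 in uninduced cells. RAB24 did not pass in either arm with median-of-ratios scaling or without the 3 noncoding RNAs, and RAB12 did not pass in induced cells with protein-coding transcripts alone (0.040, adjusted p = 0.0606). Of the TPM of RAB24 67.0% came from the noncoding transcript NR_109790. RAB9A, which returns mannose 6-phosphate receptors from late endosomes to the Golgi, stayed near or above its first level until 2 h and then fell. RAB9A in induced cells had 115 and 98.9 TPM at 0 h, 123 and 107 at 0.5 h, 119 and 137 at 1 h, 99.6 and 134 at 2 h, 58.2 and 74.8 at 4 h and 27.1 and 28.9 at 6 h. RAB9A in uninduced cells had 105 and 99.0 TPM at 0 h, 99.0 and 115 at 0.5 h, 123 and 128 at 1 h, 115 and 138 at 2 h, 101 and 112 at 4 h and 53.1 and 56.2 at 6 h. The arms overlapped at 0 to 2 h, and at 4 and 6 h both induced libraries lay below both uninduced ones. The slope was -0.33 (SE 0.042, adjusted p = 2.36e-07) in induced and -0.14 (SE 0.042, adjusted p = 0.00533) in uninduced cells. The uninduced fall rests on the last time: over 0 to 4 h its slope was 0.0089, and it no longer passed the threshold without uninduced 6 h replicate 1 (-0.10) or replicate 2 (-0.11).

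The 14 members of exocytosis, polarised delivery and the cilium were mixed, with 6 rising and 5 falling in induced cells, against 6 rising and 4 falling in uninduced cells. RAB8A, of polarised delivery and cilium growth, was the most abundant of them. RAB8A in induced cells had 80.2 and 79.5 TPM at 0 h, 95.2 and 83.4 at 0.5 h, 116 and 84.6 at 1 h, 143 and 134 at 2 h, 192 and 163 at 4 h and 189.5 and 200.2 at 6 h. RAB8A in uninduced cells had 76.4 and 85.9 TPM at 0 h, 86.9 and 93.8 at 0.5 h, 102 and 106 at 1 h, 131 and 115 at 2 h, 152 and 148 at 4 h and 184 and 190.1 at 6 h. Its slope was 0.22 (SE 0.022, adjusted p = 3.24e-09) in induced and 0.19 (SE 0.022, adjusted p = 4.51e-08) in uninduced cells. The slopes of 3 others were alike in sign, with RAB8B at 0.12 and 0.19, RAB10 at 0.16 and 0.17 and RAB34, of the cilium, at 0.20 and 0.15 in induced and uninduced cells. RAB27A and RAB27B, which dock secretory vesicles and exosome-bearing endosomes, had slopes of opposite sign. RAB27B in induced cells had 8.44 and 7.05 TPM at 0 h, 8.48 and 6.81 at 0.5 h, 7.78 and 8.25 at 1 h, 10.4 and 11.0 at 2 h, 16.8 and 17.0 at 4 h and 18.6 and 19.1 at 6 h. RAB27B in uninduced cells had 6.11 and 7.78 TPM at 0 h, 6.55 and 6.74 at 0.5 h, 6.53 and 7.43 at 1 h, 5.72 and 8.74 at 2 h, 13.2 and 15.3 at 4 h and 16.8 and 14.1 at 6 h. RAB27B stayed near its first level until 1 h in induced and 2 h in uninduced cells and then rose, with a slope of 0.23 (SE 0.026, adjusted p = 4.84e-08) in induced and 0.21 (SE 0.026, adjusted p = 2.47e-07) in uninduced cells. RAB27A had slopes of -0.093 (SE 0.024, adjusted p = 0.0017) in induced and -0.052 (SE 0.024, adjusted p = 0.0658) in uninduced cells, of which the induced one passed the threshold. Under each of the 4 alternatives RAB27A fell in uninduced cells too (-0.063 to -0.097). RAB26, linked to secretory granules, had the steepest uninduced fall of all members. RAB26 in induced cells had 35.3 and 20.3 TPM at 0 h, 50.6 and 38.6 at 0.5 h, 39.8 and 37.2 at 1 h, 18.3 and 13.6 at 2 h, 5.92 and 7.80 at 4 h and 4.17 and 4.89 at 6 h. RAB26 in uninduced cells had 33.9 and 19.2 TPM at 0 h, 39.0 and 31.2 at 0.5 h, 38.3 and 27.8 at 1 h, 12.6 and 12.7 at 2 h, 3.82 and 4.15 at 4 h and 2.94 and 3.72 at 6 h. It was highest at 0.5 h in both replicates of each arm, fell by 2 h in every library and ended under 5 TPM. The slope of RAB26 was -0.51 (SE 0.062, adjusted p = 1.08e-07) in induced and -0.56 (SE 0.062, adjusted p = 3.72e-08) in uninduced cells. RAB36, a relative of RAB34, also peaked early and then fell. RAB36 in induced cells had 7.65 and 4.66 TPM at 0 h, 9.11 and 9.24 at 0.5 h, 8.70 and 7.25 at 1 h, 6.77 and 5.76 at 2 h, 3.02 and 3.20 at 4 h and 2.99 and 2.18 at 6 h. RAB36 in uninduced cells had 4.60 and 3.48 TPM at 0 h, 7.50 and 5.32 at 0.5 h, 7.36 and 7.42 at 1 h, 5.94 and 3.73 at 2 h, 2.82 and 3.05 at 4 h and 1.79 and 1.45 at 6 h. Its slope was -0.24 (SE 0.044, adjusted p = 3.72e-05) in induced and -0.23 (SE 0.044, adjusted p = 8.83e-05) in uninduced cells. The uninduced slope did not pass the threshold over 0 to 4 h (-0.17, adjusted p = 0.0669). RAB13, of tight junctions, fell in uninduced cells, at -0.13 (SE 0.04, adjusted p = 0.00635), and had -0.074 (SE 0.04, adjusted p = 0.0984) in induced cells. In induced cells it passed with median-of-ratios scaling (-0.11) and without the 3 noncoding RNAs (-0.12). RAB3B, of regulated secretion, had slopes of -0.13 and -0.12 in induced and uninduced cells and passed in both except with quantile normalization, and RAB3A and RAB28 passed in neither. RAB3A fell in uninduced cells under each of the 4 alternatives (-0.078 to -0.091). RAB3D, another RAB3 protein, rose at 0.11 and 0.10 in induced and uninduced cells, but did not pass in either arm with protein-coding transcripts alone.

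RAB40B and RAB40C, adaptors of a cullin ubiquitin ligase, had slopes of 0.043 and 0.057 and of 0.077 and 0.11 in induced and uninduced cells, and RAB40B did not pass in induced cells as deposited. Under the alternatives RAB40B passed with quantile normalization alone, in both arms. RAB40C passed in induced cells under quantile normalization alone of the 4. RAB42 was grouped with them as a member without a settled compartment, and it fell in both arms. RAB42 in induced cells had 36.6 and 20.9 TPM at 0 h, 43.8 and 29.9 at 0.5 h, 38.2 and 31.4 at 1 h, 25.1 and 23.0 at 2 h, 11.8 and 13.7 at 4 h and 10.4 and 12.5 at 6 h. RAB42 in uninduced cells had 26.9 and 18.8 TPM at 0 h, 31.2 and 25.6 at 0.5 h, 26.9 and 23.8 at 1 h, 25.7 and 20.1 at 2 h, 16.1 and 14.8 at 4 h and 10.4 and 10.6 at 6 h. The level was highest at 0.5 or 1 h in induced and at 0.5 h in uninduced libraries and was 10.4 to 12.5 TPM at 6 h, with a slope of -0.28 (SE 0.037, adjusted p = 4.98e-07) in induced and -0.21 (SE 0.037, adjusted p = 3.81e-05) in uninduced cells.

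**Figure D2:**
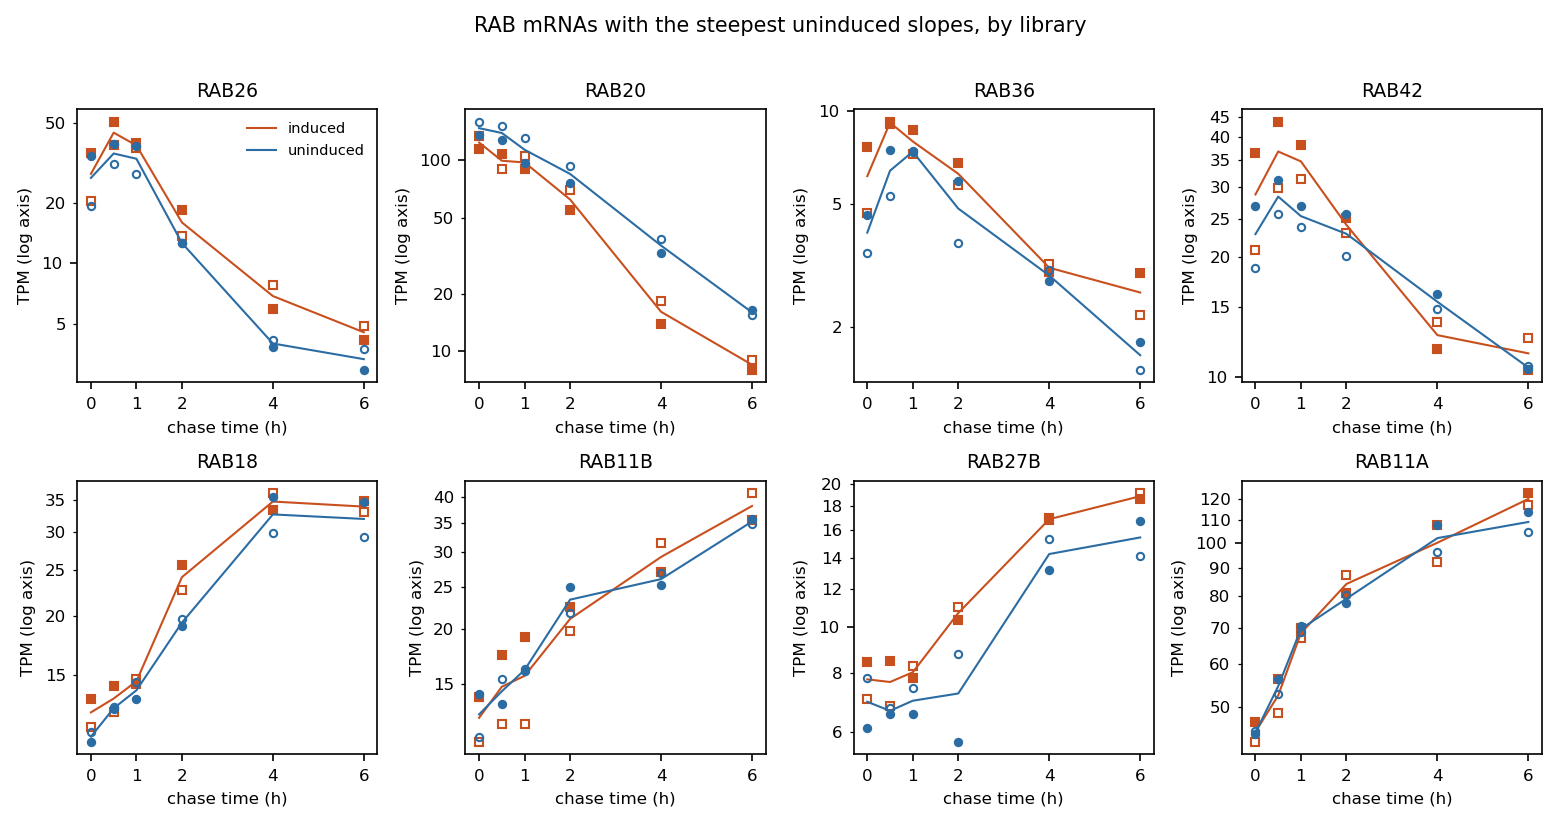
TPM on a log axis against hours of chase for the 4 members with the lowest uninduced slopes and the 4 with the highest among members past the threshold that averaged 5 TPM or more, with squares for induced and circles for uninduced libraries, filled for replicate 1 and open for replicate 2, and lines through group means. RAB26, RAB36 and RAB42 were higher at 0.5 h than at 0 h before they fell, RAB20 fell throughout by its group means, and RAB18, RAB11B, RAB27B and RAB11A ended above their 0 h level in both arms.

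Some members held more than 1 RefSeq transcript that behaved differently, though the split of reads between transcripts of a gene is an estimate. Of the members, 18 had at least 2 transcripts that averaged 1 TPM or more, and 78 such transcripts were tested in all. Their p-values were adjusted over 21749 transcripts, of which 27.5% rose and 19.1% fell in induced cells, against 26.2% and 14.1% in uninduced cells. RAB9A had NM_001195328, with 43.1% of its TPM, which fell in both arms, at -0.41 (SE 0.06, adjusted p = 6.84e-06) in induced and -0.41 (SE 0.06, adjusted p = 8.43e-06) in uninduced cells. Its other transcript, NM_004251, fell in induced cells, at -0.25 (SE 0.058, adjusted p = 0.001), and had 0.0036 (SE 0.058, adjusted p = 0.968) in uninduced cells. NM_004251 in induced cells had 64.7 and 49.0 TPM at 0 h, 43.9 and 52.1 at 0.5 h, 84.8 and 55.5 at 1 h, 67.7 and 91.5 at 2 h, 32.6 and 47.1 at 4 h and 19.5 and 17.6 at 6 h. NM_004251 in uninduced cells had 47.0 and 52.1 TPM at 0 h, 39.4 and 53.5 at 0.5 h, 61.1 and 61.0 at 1 h, 73.4 and 91.3 at 2 h, 72.1 and 79.8 at 4 h and 47.9 and 40.8 at 6 h. The arms overlapped at 0 to 2 h and were apart at 4 and 6 h, and the slope difference of NM_004251, -0.26 (SE 0.082, adjusted p = 0.341), did not pass the threshold. For RAB42, NM_152304 had slopes of -0.48 (SE 0.15, adjusted p = 0.0101) in induced and -0.45 (SE 0.15, adjusted p = 0.019) in uninduced cells, and NM_001193532 had -0.15 (SE 0.11, adjusted p = 0.296) and -0.022 (SE 0.11, adjusted p = 0.903). For RAB5C the rise was carried by NM_004583, at 0.30 (SE 0.025, adjusted p = 2.03e-09) in induced and 0.24 (SE 0.025, adjusted p = 1.09e-07) in uninduced cells, while NM_201434 had 0.068 and 0.062 and passed in neither. RAB24 joined the coding NM_001031677 and the noncoding NR_109790. NM_001031677 rose at 0.44 (SE 0.11, adjusted p = 0.00181) in induced and 0.33 (SE 0.11, adjusted p = 0.018) in uninduced cells. NR_109790 fell in induced cells, at -0.22 (SE 0.061, adjusted p = 0.00569), and had 0.0096 (SE 0.061, adjusted p = 0.92) in uninduced cells.

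**Figure D3:**
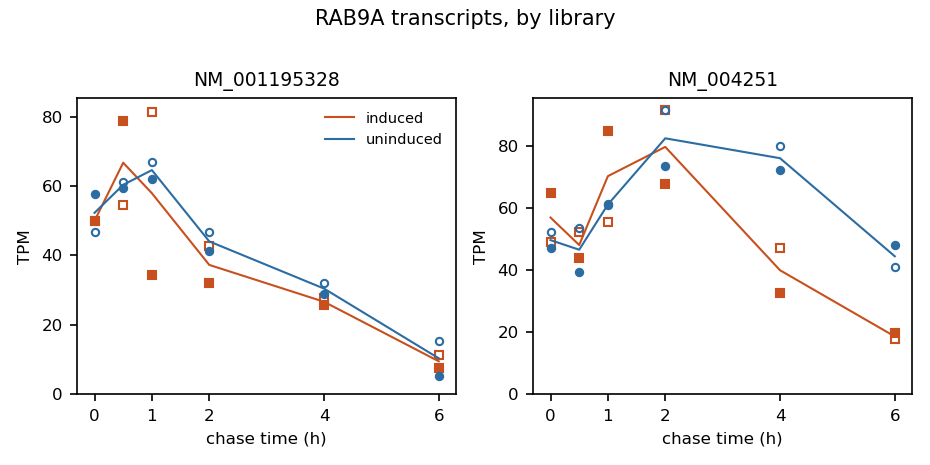
TPM of the 2 RAB9A transcripts against hours of chase, with squares for induced and circles for uninduced libraries, filled for replicate 1 and open for replicate 2, and lines through group means. NM_001195328 falls in both arms, and NM_004251 is at 19.5 and 17.6 TPM in induced against 47.9 and 40.8 TPM in uninduced libraries at 6 h.

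Next, the course of RAB mRNAs along the chase was compared between induced and uninduced cells by the slope difference, induced minus uninduced. No member passed the threshold in either direction, where 0.00745% of all genes were higher and 0.335% were lower. At an unadjusted p under 0.05, 7 members, or 14.9%, had a lower slope in induced cells and 0 a higher one, where 9.82% and 2.65% of all genes did, and the median difference was -0.012 over the members and -0.0094 over all genes. The smallest p-values belonged to RAB23, RAB9A and RAB20. RAB23, an antagonist of Hedgehog signalling at the cilium, fell in induced cells and had an uninduced slope near 0 as deposited. RAB23 in induced cells had 26.6 and 23.7 TPM at 0 h, 33.2 and 27.5 at 0.5 h, 28.0 and 28.6 at 1 h, 28.5 and 27.6 at 2 h, 24.8 and 22.1 at 4 h and 16.3 and 16.6 at 6 h. RAB23 in uninduced cells had 28.9 and 26.4 TPM at 0 h, 29.4 and 30.8 at 0.5 h, 31.8 and 27.5 at 1 h, 30.6 and 29.5 at 2 h, 35.3 and 28.5 at 4 h and 32.1 and 23.6 at 6 h. The arms overlapped at 0, 0.5 and 1 h, and the induced libraries were the lower ones from 2 h on. The slope of RAB23 was -0.11 (SE 0.022, adjusted p = 8.36e-05) in induced and -0.0015 (SE 0.022, adjusted p = 0.957) in uninduced cells. The uninduced slope was a called fall with median-of-ratios scaling (-0.049), quantile normalization (-0.063) and protein-coding transcripts alone (-0.047), and the induced one did not pass over 0 to 4 h (-0.051, adjusted p = 0.151). Its slope difference came to -0.11 (SE 0.032, adjusted p = 0.116). It passed the threshold without uninduced 6 h replicate 2, at -0.14 (adjusted p = 0.0343), and without induced 0 h replicate 2, at -0.13 (adjusted p = 0.0388). The slope difference of RAB9A was -0.19 (SE 0.059, adjusted p = 0.17) and that of RAB20 was -0.12 (SE 0.042, adjusted p = 0.205). At 6 h the ratio of induced to uninduced means was 0.512 for RAB9A, 0.532 for RAB20 and 0.590 for RAB23. A trend contrast over the means of the 12 groups gave RAB9A the same slope difference with an SE of 0.029 and an adjusted p of 0.00103. With this contrast RAB33B (adjusted p = 0.014), RAB23 (adjusted p = 0.0194) and RAB20 (adjusted p = 0.0424) also passed, all with the lower slope in induced cells. The call for these 4 members thus depended on the model of the time course. Over all 13416 genes this contrast called 787 lower and 36 higher, against 45 and 1 with a line per arm.

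**Figure D4:**
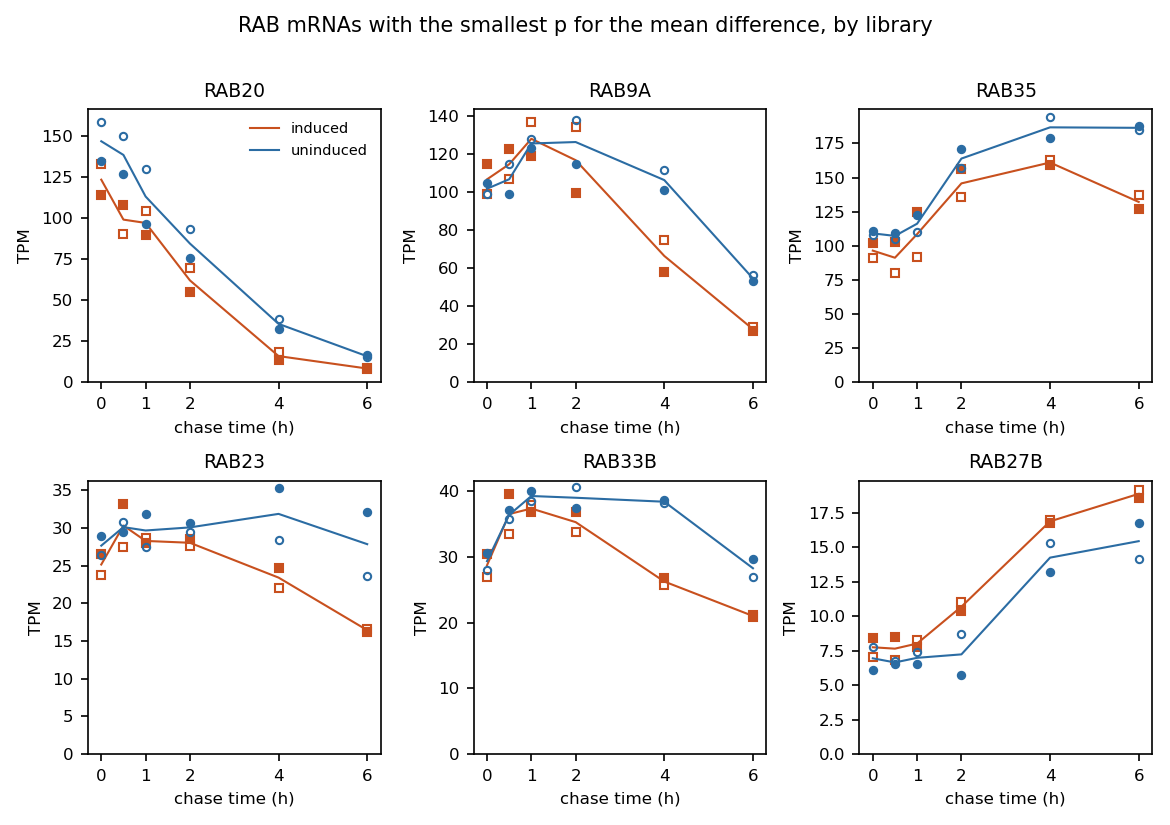
TPM against hours of chase for the 6 members with the smallest p for the mean difference between the arms, with squares for induced and circles for uninduced libraries, filled for replicate 1 and open for replicate 2, and lines through group means. RAB20, RAB9A, RAB35, RAB23 and RAB33B are lower in induced than in uninduced libraries at 4 and 6 h, and RAB27B is higher in induced libraries at every time but 0 h.

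Over the whole chase, 9 members were higher and 6 lower in induced than in uninduced cells, 19.1% and 12.8% of the 47, where 14.3% and 11.4% of all genes were. This comparison used the mean of induced minus uninduced over the 6 times, and its median was 0.052 over the members and 0.051 over all genes, so the shares lay near those of all genes. The split depends on the scaling: 60% of the member calls were higher as deposited, 41.2% with median-of-ratios scaling, 43.8% with quantile normalization and 71.4% with protein-coding transcripts alone. Of the calls over all genes 55.6%, 45.9%, 48.7% and 67.7% were higher in the same settings. The 6 members that were lower came from 5 of the 6 role groups. RAB20 stood lowest at -0.55 (SE 0.073, adjusted p = 5.62e-05), followed by RAB9A at -0.26 (SE 0.061, adjusted p = 0.00592) and RAB23 at -0.24 (SE 0.057, adjusted p = 0.00681). RAB35, of fast recycling and cytokinesis, was also lower. RAB35 in induced cells had 102 and 91.2 TPM at 0 h, 103 and 79.9 at 0.5 h, 125 and 92.0 at 1 h, 156 and 135 at 2 h, 159 and 163 at 4 h and 127 and 137 at 6 h. RAB35 in uninduced cells had 111 and 108 TPM at 0 h, 109 and 105 at 0.5 h, 122 and 109.9 at 1 h, 171 and 157 at 2 h, 179 and 194 at 4 h and 188 and 185 at 6 h. Both induced libraries lay below both uninduced ones at all times but 1 h, and the mean difference was -0.23 (SE 0.055, adjusted p = 0.00544). RAB35 rose along the chase, at 0.10 (SE 0.03, adjusted p = 0.0032) in induced and 0.15 (SE 0.03, adjusted p = 1.16e-04) in uninduced cells. The induced slope did not pass with quantile normalization, protein-coding transcripts alone or without the 3 noncoding RNAs. RAB33B was lower as well. RAB33B in induced cells had 30.5 and 27.0 TPM at 0 h, 39.5 and 33.5 at 0.5 h, 36.9 and 37.9 at 1 h, 36.8 and 33.8 at 2 h, 26.7 and 25.8 at 4 h and 21.1 and 20.9 at 6 h. RAB33B in uninduced cells had 30.6 and 28.1 TPM at 0 h, 37.1 and 35.7 at 0.5 h, 40.0 and 38.5 at 1 h, 37.4 and 40.6 at 2 h, 38.6 and 38.1 at 4 h and 29.6 and 26.9 at 6 h. The arms overlapped at 0 and 0.5 h and were apart from 1 h on, with a mean difference of -0.20 (SE 0.041, adjusted p = 0.00252). RAB1B was lower by a smaller amount, -0.14 (SE 0.047, adjusted p = 0.0348), and passed in 21 of 34 settings. RAB20, RAB23, RAB33B, RAB35 and RAB9A, with RAB31 and RAB36 among the higher ones, passed in all 34 settings in which the mean difference was computed.

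The 9 members that were higher in induced cells were RAB26, RAB36, RAB6B, RAB27B, RAB17, RAB31, RAB5B, RAB2A and RAB22A. None of the 6 recycling and 6 late endosome members was among them, and 4 of the 8 early endosome members were. Among all genes 14.3% were higher, and groups this small allow no reading by compartment. RAB36 was higher by 0.32 (SE 0.09, adjusted p = 0.0178) and RAB27B by 0.26 (SE 0.068, adjusted p = 0.0122), and the induced RAB27B libraries lay above the uninduced ones at every time but 0 h. RAB27B did not pass with quantile normalization (0.20, adjusted p = 0.0761). RAB26 was higher by 0.32 (SE 0.11, adjusted p = 0.0372), but passed in 18 of the 34 settings and lost its call when any 1 of 14 libraries was left out. RAB6B, the neuronal relative of RAB6A, was higher by 0.30 (SE 0.087, adjusted p = 0.021), at 1.36 to 2.16 TPM in induced and 0.74 to 1.75 TPM in uninduced libraries. RAB31 was higher by 0.17 (SE 0.048, adjusted p = 0.016). RAB31 in induced cells had 27.8 and 24.8 TPM at 0 h, 24.8 and 25.2 at 0.5 h, 24.1 and 22.9 at 1 h, 26.7 and 25.6 at 2 h, 29.9 and 24.2 at 4 h and 34.3 and 30.5 at 6 h. RAB31 in uninduced cells had 22.9 and 24.7 TPM at 0 h, 21.8 and 20.9 at 0.5 h, 20.7 and 21.2 at 1 h, 21.5 and 22.2 at 2 h, 28.2 and 23.1 at 4 h and 29.3 and 26.6 at 6 h. The arms were apart at all times but 4 h, by a few TPM each. RAB5B was higher by 0.16 (SE 0.053, adjusted p = 0.0324), RAB22A by 0.12 (SE 0.04, adjusted p = 0.0333), RAB2A by 0.16 (SE 0.054, adjusted p = 0.0415) and RAB17 by 0.22 (SE 0.068, adjusted p = 0.0286). RAB17 did not pass with protein-coding transcripts alone or with quantile normalization, RAB22A with either median-of-ratios scaling or quantile normalization, and RAB2A with median-of-ratios scaling. Of the 34 settings RAB17 passed in 24, RAB5B in 21, RAB22A in 19 and RAB2A in 15. The count of higher members was 4 without induced 0 h replicate 1 or induced 6 h replicate 2, and 5 without induced 1 h or 2 h replicate 1 or without replicate 2 of any uninduced time.

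**Figure D5:**
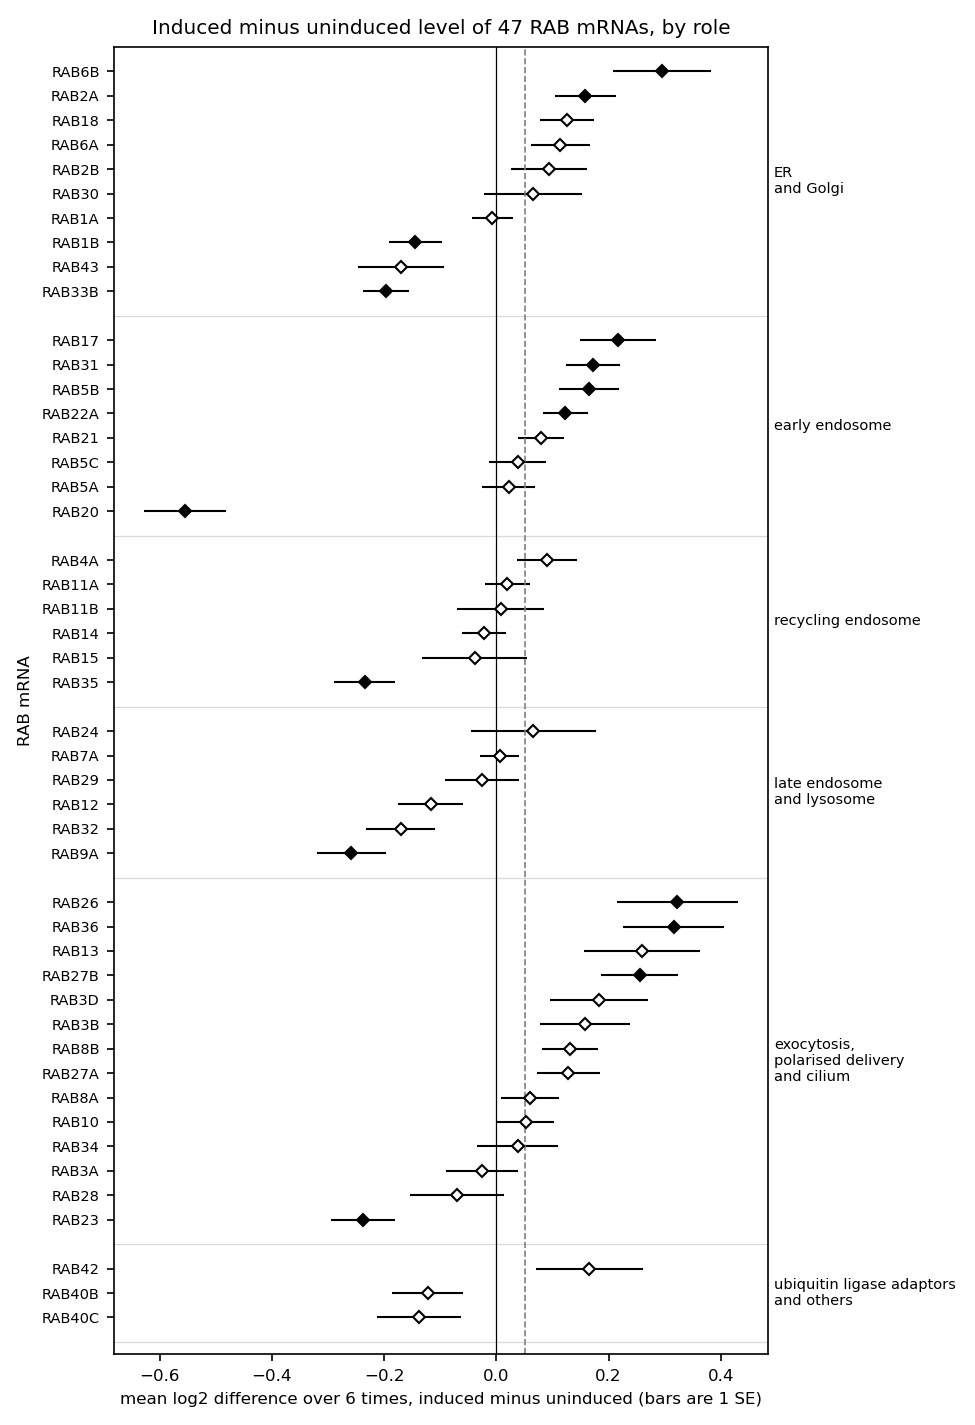
Mean log2 difference in TPM + 1 over the 6 times, induced minus uninduced, for the 47 RAB mRNAs by role, with bars of 1 SE, filled diamonds for an adjusted p under 0.05 and a dashed line at the median of all genes, 0.051. RAB20 stands apart at -0.55, the higher members lie between 0.12 and 0.32, and each of the first 5 role groups holds filled diamonds.

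At the start of the chase the arms did not differ in any member past the threshold, where 0.0224% of all genes were higher and 0.00745% lower in induced cells. At an unadjusted p under 0.05, 3 members were higher in induced cells and 1 was lower, or 6.38% and 2.13%, where 3.94% and 2.63% of all genes were. RAB8B had 12.3 and 10.1 TPM at 0 h in induced against 8.55 and 8.99 TPM in uninduced cells, a difference of 0.32 (SE 0.12, adjusted p = 0.67). RAB2B had 16.4 and 12.8 TPM against 11.0 and 10.3 TPM, a difference of 0.41 (SE 0.17, adjusted p = 0.677). RAB40B had 6.01 and 4.60 TPM against 7.06 and 7.18 TPM, a difference of -0.37 (SE 0.15, adjusted p = 0.677). In these 3 members the libraries of the arms did not overlap at 0 h. That held for 7 members higher and 4 lower in induced cells, and for 16.2% and 10.9% of all genes. By 6 h both induced libraries lay above both uninduced ones for 13 members and below them for 14, where 31.3% and 28.4% of all genes did.

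The mRNAs of proteins that control RAB GTPases were measured through 4 lists. For comparison, 41.6% of all genes rose and 29% fell in induced cells, against 42.8% and 22.3% in uninduced cells. Of 20 prenylation and recycling genes, all measured, 12 rose and 1 fell along the chase in induced cells, against 13 and 0 in uninduced cells. GDI2, a GDP dissociation inhibitor that takes RAB proteins off membranes, rose in both arms. GDI2 in induced cells had 101 and 83.4 TPM at 0 h, 107 and 87.1 at 0.5 h, 118 and 88.1 at 1 h, 153 and 128 at 2 h, 205 and 199.6 at 4 h and 258 and 243 at 6 h. GDI2 in uninduced cells had 91.5 and 93.8 TPM at 0 h, 95.5 and 94.7 at 0.5 h, 103 and 98.3 at 1 h, 133 and 128 at 2 h, 196 and 189 at 4 h and 222 and 203 at 6 h. Its level at 6 h was above that of all earlier times in both arms. The slope of GDI2 was 0.26 (SE 0.02, adjusted p = 1.14e-10) in induced and 0.22 (SE 0.02, adjusted p = 2.35e-09) in uninduced cells. YIPF5, a Golgi membrane protein, rose in both arms and had a slope difference of -0.088 (SE 0.026, adjusted p = 0.138). RABIF, a chaperone of GTPases without nucleotide, was the member of this list that fell in induced cells, at -0.07 (SE 0.021, adjusted p = 0.00485). RABIF in induced cells had 31.0 and 26.0 TPM at 0 h, 28.3 and 26.2 at 0.5 h, 31.7 and 26.0 at 1 h, 33.2 and 31.3 at 2 h, 26.1 and 27.0 at 4 h and 21.1 and 19.4 at 6 h. RABIF in uninduced cells had 31.1 and 31.1 TPM at 0 h, 30.4 and 31.2 at 0.5 h, 32.4 and 36.2 at 1 h, 39.6 and 37.3 at 2 h, 36.9 and 36.1 at 4 h and 32.8 and 32.3 at 6 h. At every time both induced libraries were below both uninduced ones, with a mean difference of -0.32 (SE 0.044, adjusted p = 1.00e-04) and a slope difference of -0.085 (SE 0.03, adjusted p = 0.214).

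Of 52 exchange factor genes 44 were measured, and 25 rose and 5 fell in induced cells, against 25 and 4 in uninduced cells. The shares of all genes were 41.6% and 29% in induced and 42.8% and 22.3% in uninduced cells. GAPVD1, an exchange factor for RAB5, rose at 0.23 (SE 0.031, adjusted p = 5.34e-07) in induced and 0.24 (SE 0.031, adjusted p = 4.40e-07) in uninduced cells. TRAPPC13, a subunit of a TRAPP complex, fell in both. TRAPPC13 in induced cells had 28.5 and 28.4 TPM at 0 h, 28.2 and 25.6 at 0.5 h, 24.6 and 28.1 at 1 h, 18.1 and 21.4 at 2 h, 11.7 and 11.6 at 4 h and 9.28 and 9.17 at 6 h. TRAPPC13 in uninduced cells had 26.5 and 30.1 TPM at 0 h, 26.6 and 25.7 at 0.5 h, 26.9 and 31.1 at 1 h, 18.6 and 24.7 at 2 h, 13.6 and 15.1 at 4 h and 9.37 and 10.1 at 6 h. The arms ran together, with slopes of -0.28 (SE 0.02, adjusted p = 2.21e-11) and -0.25 (SE 0.02, adjusted p = 1.81e-10). SMCR8, a DENN protein, fell more steeply in induced cells by its estimate. SMCR8 in induced cells had 44.1 and 39.6 TPM at 0 h, 43.2 and 39.5 at 0.5 h, 42.2 and 38.0 at 1 h, 37.0 and 38.0 at 2 h, 28.0 and 34.2 at 4 h and 21.4 and 22.0 at 6 h. SMCR8 in uninduced cells had 50.8 and 46.9 TPM at 0 h, 51.6 and 49.1 at 0.5 h, 52.1 and 46.6 at 1 h, 48.0 and 47.3 at 2 h, 43.0 and 43.9 at 4 h and 35.4 and 31.5 at 6 h. Every induced library was below every uninduced library of its time, with a mean difference of -0.37 (SE 0.044, adjusted p = 2.51e-05) and a slope difference of -0.061 (SE 0.023, adjusted p = 0.25). DENND5B had a slope difference of -0.067 (SE 0.022, adjusted p = 0.18).

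Of 40 GTPase-activating protein genes 37 were measured, and 15 rose and 6 fell in each arm. Among all genes 41.6% rose and 29% fell in induced cells, and 42.8% and 22.3% in uninduced cells. TBC1D14, of autophagy and recycling endosomes, rose at 0.25 (SE 0.025, adjusted p = 3.68e-09) in induced and 0.22 (SE 0.025, adjusted p = 3.62e-08) in uninduced cells, and RAB3GAP1, the catalytic subunit of the activating protein for RAB3, at 0.20 (SE 0.02, adjusted p = 2.80e-09) and 0.17 (SE 0.02, adjusted p = 4.87e-08). TBC1D12 and SGSM2 had the smallest p for the slope difference, at -0.09 (SE 0.034, adjusted p = 0.251) and 0.084 (SE 0.042, adjusted p = 0.42). Of 79 effector and tether genes 66 were measured, and 38 rose and 6 fell in induced cells, against 36 and 8 in uninduced cells. APPL1, an effector of RAB5, rose at 0.32 (SE 0.025, adjusted p = 7.31e-11) in induced and 0.28 (SE 0.025, adjusted p = 9.65e-10) in uninduced cells, and the golgin GOLGA4 rose at 0.28 (SE 0.028, adjusted p = 4.54e-09) and 0.28 (SE 0.028, adjusted p = 7.65e-09). The exocyst subunit EXOC4 had a slope difference of 0.10 (SE 0.034, adjusted p = 0.185) and the golgin GOLGA5 one of -0.091 (SE 0.031, adjusted p = 0.197). No gene of the 4 lists passed limma's threshold for the slope difference or at 0 h. At an unadjusted p under 0.05 the slope difference was higher in induced cells for 2 prenylation and recycling genes, 2 exchange factors, 0 GTPase-activating proteins and 3 effectors and tethers, and lower for 2, 4, 1 and 3 of them, where 2.65% of all genes were higher and 9.82% lower. At 0 h such genes numbered 2, 2, 1 and 1, all higher in induced cells. Of all genes 3.94% were higher there and 2.63% lower at 0 h. Over the whole chase 3 prenylation and recycling genes were higher and 1 lower in induced cells, as were 5 and 3 exchange factors, 3 and 2 GTPase-activating proteins and 15 and 5 effectors and tethers. The lists held 20, 44, 37 and 66 measured genes. By the same comparison 14.3% of all genes were higher and 11.4% lower.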

How the data were processed

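Bromouridine-labelled cytoplasmic RNA of 24 libraries was analysed from the TPM values per RefSeq transcript that the authors deposited. Per the submitters' processing notes, Trim Galore, Bowtie2, RSEM 1.3.0 and hg19 were used, with no roles given. The 48009 transcript rows (3 without a symbol) were added up per symbol, and genes averaging 1 TPM or more were kept. Depth is unknown, so no counting error could be given. Fits used limma 3.58.1 (R 4.3.3, package data.table at version 1.17.8) on log2(TPM + 1), which understates fold changes of low genes, with a variance trend and no replicate term. One model with a line per arm (20 residual degrees of freedom) gave slopes and their difference. Another with a mean per group (12 residual degrees of freedom) served for differences at 0 h and for differences averaged over the 6 times, induced minus uninduced. All p-values are two-sided, with Benjamini-Hochberg adjustment over 13416 genes and a threshold of 0.05. The fits were tested on simulated data. Plots used matplotlib 3.10.9 and Python 3.11.15.

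Members given by library were the 3 or 6 with the smallest p for each difference between the arms, the 4 lowest and 4 highest uninduced slopes among called members averaging 5 TPM or more, and the most abundant of each role group. From each regulator list the rule took the 2 genes with the smallest p for the uninduced slope and for the slope difference. One gene taken by this rule is not reported here. The values by library of RAB31, the 0 and 6 h values of RAB43, the mean differences of RABIF and SMCR8 and the transcripts printed were chosen after their values were seen. The members, role groups and lists were chosen with earlier results of these data known. Alternatives covered the pseudocount, filter, scaling, transcript set, replicate block, variance trend, chase length, trend contrast and each library left out.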

Additional observations from a re-analysis of the deposited data

Results flagged for a closer look

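The slope of TOB2, the gene of the induced mutant, differed between the arms by a test of the difference itself. Its slope difference, induced minus uninduced, was 0.224 log2 per hour (SE 0.038, limma adjusted p = 0.00807), with a slope of 0.017 in induced and -0.21 in uninduced cells. The TPM of this symbol joins whatever reads of the transgene and of the endogenous gene were assigned to it, and they cannot be told apart here. Without induced 6 h replicate 1 the slope difference was 0.21 and the adjusted p was 0.0677, and over a chase of 0 to 4 h it was 0.14 with an adjusted p of 0.63. Groups of 2 libraries are too small for a check of single libraries that stand apart.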

How the results depend on the processing

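The count of members that fell in uninduced cells was 14 with median-of-ratios scaling, 13 with protein-coding transcripts alone and 4 over 0 to 4 h, against 8, and in induced cells 7 over 0 to 4 h, against 12. Of all genes 4332, 3246 and 1532 fell in uninduced cells in these settings, against 2993. In induced cells 2578 fell over 0 to 4 h, against 3897. Over 0 to 4 h the uninduced slope of RAB9A turned to 0.0089. The count of members with a lower slope in induced cells, 0 as reported, was 1 with quantile normalization (RAB9A), 2 with protein-coding transcripts alone (RAB23 and RAB9A), 1 without RMRP, MIR6723 and RPPH1 (RAB23), 4 with the trend contrast and 0 to 1 with single libraries left out. For the mean difference, 15 members were higher with protein-coding transcripts alone, 14 without the 3 noncoding RNAs and 4 to 13 with single libraries left out, against 9, and 10 were lower with median-of-ratios scaling, against 6. With single libraries left out, 26 to 28 members rose and 11 to 14 fell in induced cells, 27 to 31 rose and 7 to 9 fell in uninduced cells, and 5 to 7 were lower by the mean difference. A lone library of a group was then assumed to vary like the others. Settings without the filter or with protein-coding transcripts alone can admit RAB symbols outside the 47. Protein-coding transcripts alone left 11939 genes, of which 396 had a lower slope in induced cells and 2886 a higher mean. Without the 3 noncoding RNAs these were 324 and 2964 of 13734 genes, against 45 and 1922 of 13416 as reported. Quantile normalization gave 161 genes with a lower slope. By the mean difference 2256 genes were lower with median-of-ratios scaling, against 1532. The main fits had no replicate term. Deviations of same-numbered libraries correlated above 0.1 in 29 of 66 pairs of groups (-0.036 to 0.25). These correlations do not show that a shared replicate effect is absent. With a replicate block 2856 of all genes were higher and 1865 lower by the mean difference, against 1922 and 1532 without it. Of the members 12 were higher and 7 lower with the block. The slope counts of the members stayed at 28 and 12 in induced and 30 and 8 in uninduced cells. Depth is unknown, so what it limits cannot be stated.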
